A study of Homo sapiens with 4 samples.

Results

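The promoters of 10 imprinted genes were examined: MEST, PEG10, SGCE, PEG3, ZIM2, NNAT, NAP1L5, PLAGL1, FAM50B and L3MBTL1. The members were chosen by name, and their CpGs were those within 3 kb on either side of the annotated transcript start, which is the MANE Select start for 9 genes and the Ensembl canonical start for PEG10 (GENCODE 44, hg38). ZIM2 starts at the same base as PEG3, and the SGCE window overlaps that of PEG10 almost wholly, so the 10 genes gave 8 distinct promoter windows. The windows of the 10 genes held 1144 of the 23269121 CpGs that were listed in all 4 libraries, 2 of them in the SGCE window alone and 1142 in the 8 windows, with that of PEG10 standing for both it and SGCE, and the windows are set below against those of 19083 protein-coding genes.

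Methylation was measured genome-wide after bisulfite conversion in HUDEP-2, an immortalised human erythroid progenitor line from cord blood that is kept in doxycycline. Each group was 1 library. The first held untreated cells that were not differentiated, and the other 3 held differentiated cells given vehicle (DMSO), an inhibitor of DNMT1 or an inhibitor of EED. Those 3 shared a final 0.1% DMSO from expansion onward, a growth stage of 4 days and a maturation stage of 2 days. The labels call the cells of the untreated and DMSO groups normal adult-hemoglobin expressers and those of both inhibitor groups higher in fetal hemoglobin, and they name neither compound nor dose. With 1 library per group nothing measures the spread between cultures, so each test compares the reads of a pair of libraries and not the conditions, and each interval covers counting error only.

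At an imprinted gene the copies inherited from the mother and the father differ in expression. At most of the genes examined here the maternal copy carries DNA methylation laid down in the oocyte over a CpG-rich control region, and the paternal copy of that region is unmethylated. A germline control region with 1 methylated and 1 unmethylated copy therefore reads as intermediate methylation in a bulk sample. After fertilisation the mark is held through replication by DNMT1, the enzyme that copies methylation to the new strand, and zinc finger proteins such as ZFP57, which binds methylated TGCCGC, help to keep it. EED is a subunit of the Polycomb repressive complex PRC2, which methylates histone H3 at lysine 27.

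The sequences below show the control-region or island DNA of 4 members, 120 bases each, in the direction of the gene and outside annotated UTRs. Capitals mark TGCCGC, the core of the ZFP57 site, and GCCATNTT, the core of the YY1 site, both searched on either strand. The NAP1L5 stretch is chr4:88697607-88697726 on the minus strand, 103 to 222 bp downstream of the start in its coding exon. The PEG3 stretch is chr19:56839017-56839136 on the minus strand in intron 1, the PEG10 stretch chr7:94656891-94657010 on the plus strand in intron 1, and the MEST stretch chr7:130490950-130491069 on the plus strand upstream of the start. These 4 were picked after their methylation values were seen.
NAP1L5: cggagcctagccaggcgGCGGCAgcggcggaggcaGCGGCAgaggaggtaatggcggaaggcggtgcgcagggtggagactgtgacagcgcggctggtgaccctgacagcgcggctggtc
PEG3: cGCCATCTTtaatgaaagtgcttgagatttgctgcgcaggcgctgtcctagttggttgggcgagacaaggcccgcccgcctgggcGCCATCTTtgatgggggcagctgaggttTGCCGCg
PEG10: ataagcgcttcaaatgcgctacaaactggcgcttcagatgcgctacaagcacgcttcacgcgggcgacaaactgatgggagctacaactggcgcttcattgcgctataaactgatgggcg
MEST: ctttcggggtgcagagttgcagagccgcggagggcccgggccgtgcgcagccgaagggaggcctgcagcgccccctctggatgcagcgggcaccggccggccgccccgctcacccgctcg
The NAP1L5 stretch holds 2 matches to TGCCGC, and the PEG3 stretch holds 2 matches to GCCATNTT and 1 to TGCCGC, with no overlap between the motifs. Neither motif occurs in the PEG10 and MEST stretches, which are shown for comparison of CpG content: 11 CpGs in the PEG10 stretch and 15 in that of MEST, against 13 for NAP1L5 and 9 for PEG3.

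Methylation at the members fell with the DNMT1 inhibitor and, over whole windows, differed little in the other comparisons. A CpG or window was called when its two-sided Fisher exact test gave a Benjamini-Hochberg adjusted p below 0.01 and the levels differed by at least 25 percentage points. With the DNMT1 inhibitor 443 of the 1144 member CpGs (38.7%) were called lower than in DMSO and 0 higher, where 63.6% of all CpGs were called lower and 4.3e-06% higher. A CpG with a lower starting level or fewer reads can less easily be called, so these counts depend on starting level and depth as well as on the change. In DMSO against non-differentiated cells 0 member CpGs were called in either direction by Fisher's exact test (background 0%), with 15 lower and 4 higher at an unadjusted p under 0.05. With the EED inhibitor 0 member CpGs were called (background 0.00374% lower and 0.000623% higher), with 13 lower and 16 higher at an unadjusted p under 0.05.

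Over whole windows, 7 of the 8 were called lower with the DNMT1 inhibitor, a share near the 83.6% of all windows, and 0 were called in the other comparisons (background 0%). The called windows were 27.8 (PEG3) to 46.3 points (NNAT) below DMSO, with the largest adjusted p at NAP1L5 (2.16e-144, Fisher's exact test). The exception was the PEG10 and SGCE window, which was 10.9 points below a DMSO level of 28.3%. Neighbouring CpGs share reads, so these p-values are too small. When the reads of a window were divided by its CpG number, 4 windows passed against 46.9% of all (NNAT, NAP1L5, FAM50B and L3MBTL1), with adjusted p of 0.0556 for MEST, 0.07 for PEG3 and 0.0159 for PLAGL1.

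**Figure D1:**
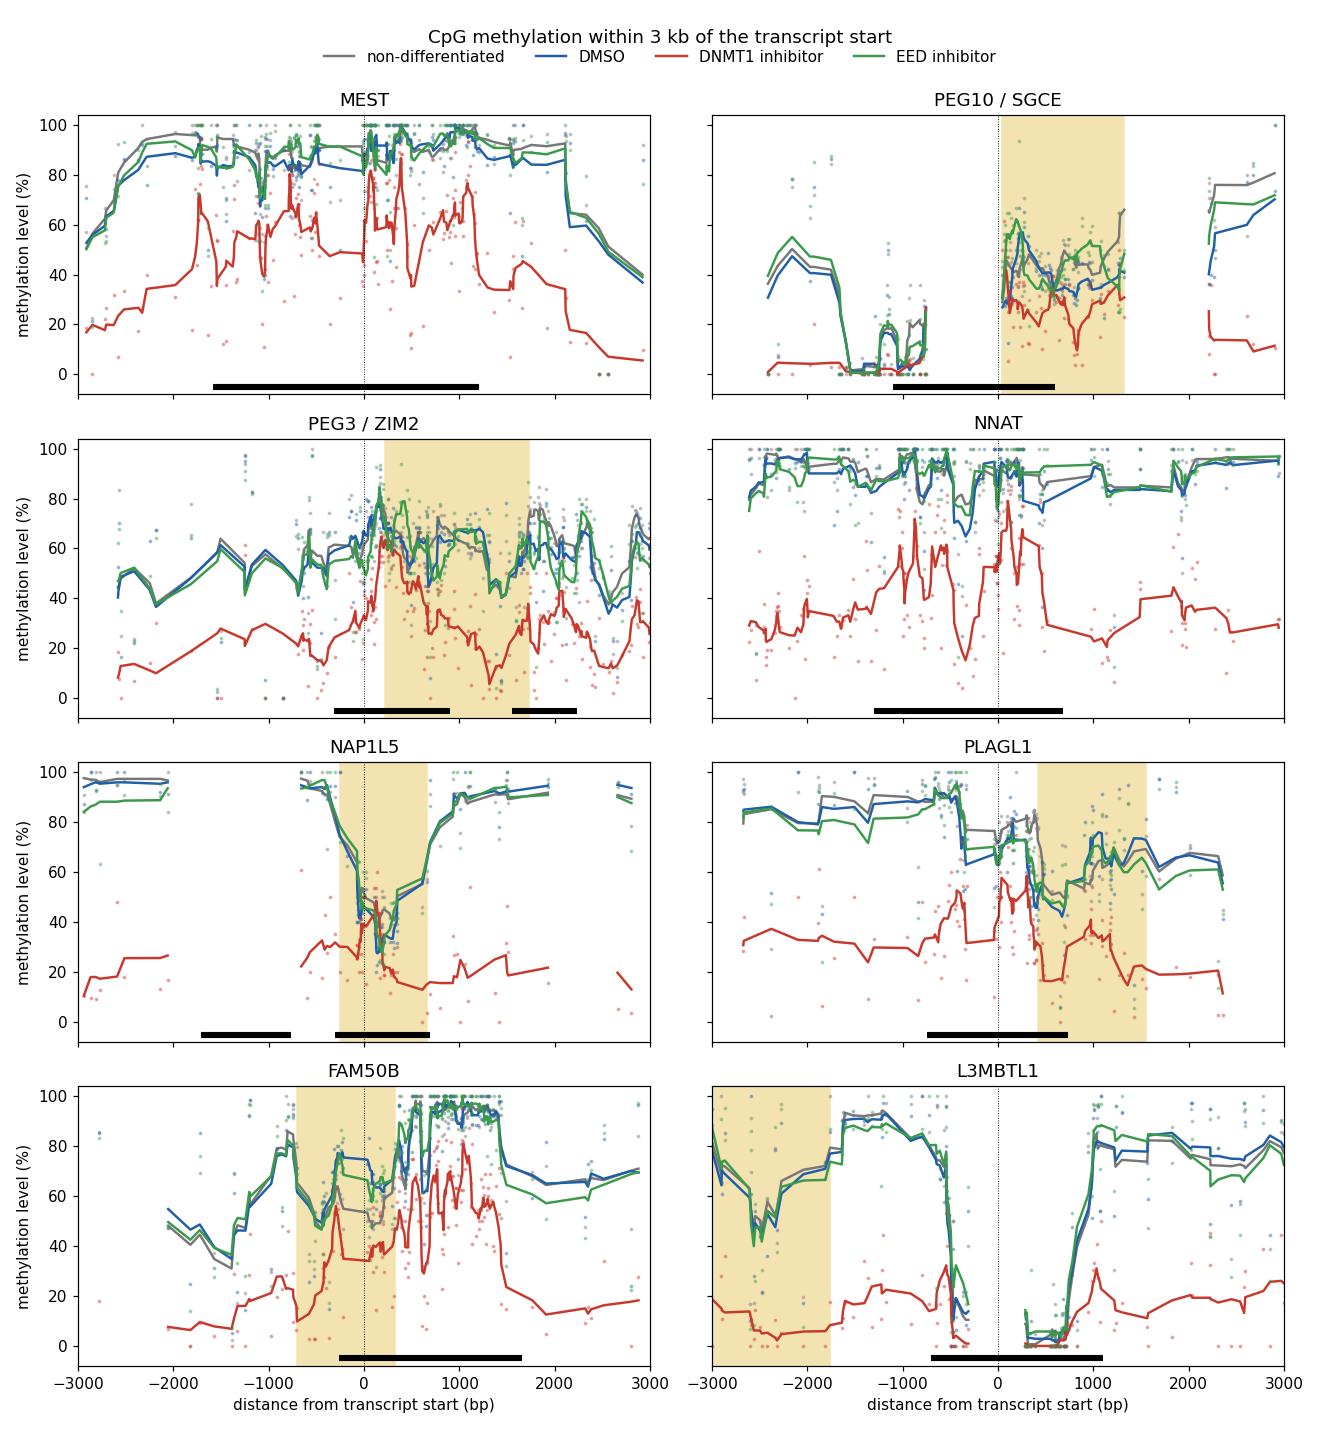
Methylation level of each CpG listed in all 4 libraries (points, percent) against distance from the transcript start (bp) in the 8 windows, with a running mean over 7 CpGs for each library (lines, broken at gaps over 500 bp). Shading marks the control region found in non-differentiated cells and black bars mark CpG islands of the sequence. The lines of the 3 libraries without the DNMT1 inhibitor run close together over most of each window, with local gaps in PLAGL1, PEG10 and FAM50B. The line of the DNMT1 inhibitor lies below them over most of each window.

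The control region of each window was located in the non-differentiated library, which enters neither inhibitor comparison. Levels given in a row are in the order non-differentiated, DMSO, EED inhibitor and DNMT1 inhibitor. The control region was the longest run of at least 10 CpGs, with no gap over 500 bp, whose level pooled over 5 consecutive CpGs stayed between 25% and 75%. Such a run was found in 6 windows, those of PEG10, PEG3, NAP1L5, PLAGL1, FAM50B and L3MBTL1. A run of this kind is common, being found in 43.7% of all protein-coding windows, so its presence alone does not mark an imprinted promoter. MEST and NNAT had none. Where the single CpGs with the highest and lowest share left are named, they are those of the control region, or of the islands in MEST and NNAT, at 25% or more with DMSO and with at least 20 reads in the DMSO and DNMT1 inhibitor libraries.

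NAP1L5 is an intronless gene inside intron 23 of HERC3, and its profile had a clear step on either side of the start. The control region began 256 bp upstream and ended 656 bp downstream (chr4:88697173-88698085, 36 CpGs listed in all libraries). Its level was 46.7% in non-differentiated cells, 39.0% with DMSO, 45.4% with the EED inhibitor and 28.5% with the DNMT1 inhibitor. The flanks read 91.0%, 92.5%, 91.3% and 21.6% in the same order. The flanks, more methylated than the control region in 3 libraries, were the less methylated in the DNMT1 inhibitor library. With at least 20 reads that last order was lost, at 19.2% inside and 20.4% in the flanks.

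The NAP1L5 edges were steep. Across the downstream edge the 5 CpGs inside read 43.8% and the 5 outside 89.6% in non-differentiated cells, 40.9% and 89.7% with DMSO, and 47.9% and 89.2% with the EED inhibitor. With the DNMT1 inhibitor they read 14.4% and 21.4%. The same rule applied to the DMSO and EED inhibitor libraries put this edge at the same CpG. The upstream edge fell at the same CpG with the EED inhibitor and 82 bp nearer the start with DMSO.

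Inside the NAP1L5 control region 73.1% of the DMSO level was left with the DNMT1 inhibitor (95% interval 62.2% to 85.8%), against 23.3% outside (20.7% to 26.3%). With at least 20 reads these were 53.3% and 22.3%, and with a band of 15% to 85% they were 58.3% and 24.4%, with the inside higher in both. In the first 300 bp downstream of the start, 16 CpGs read 43.0% in non-differentiated cells, 33.3% with DMSO, 34.9% with the EED inhibitor and 32.4% with the DNMT1 inhibitor, so 97.3% of the DMSO level was left there (77.6% to 122%). The share differed along the region: the 4 CpGs from 600 to 899 bp, across its downstream edge, read 76.6% with DMSO and 5.97% with the DNMT1 inhibitor.

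Single CpGs inside the NAP1L5 control region differed from each other. The CpG nearest the start, 2 bp upstream (chr4:88697831), read 52.9% in non-differentiated cells, 50.0% with DMSO, 45.5% with the EED inhibitor and 50.0% with the DNMT1 inhibitor, over 10 to 17 reads. The downstream edge CpG (chr4:88697173) read 57.1%, 56.0%, 60.7% and 3.70%, and was called lower (adjusted p = 7.71e-05, Fisher's exact test). It was also the CpG with the lowest share left, and the CpG 348 bp downstream had the highest, 31.8% with DMSO and 30.0% with the DNMT1 inhibitor, among 8 CpGs with at least 20 reads and 25% methylation. The upstream edge CpG (chr4:88698085) read 100%, 100%, 72.0% and 20%.

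PEG10, a retrotransposon-derived gene needed for placenta formation, and SGCE, which encodes epsilon-sarcoglycan, start from opposite strands of the same island. The control region spanned chr7:94655974-94657786, from 396 bp upstream of the PEG10 start in SGCE intron 1 to 1416 bp downstream in PEG10 intron 1. Its upstream part is under 10 reads in some library, so the 67 CpGs listed in all 4 begin 46 bp downstream of the start. They read 43.0% in non-differentiated cells, 39.0% with DMSO, 44.4% with the EED inhibitor and 27.4% with the DNMT1 inhibitor.

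Of the DMSO level, 70.4% (63.8% to 77.7%) was left inside the PEG10 control region and 22.8% (16.7% to 31.0%) outside it. Of the CpGs, 3 of 67 inside and 10 of 56 outside were called lower, both shares below the 63.6% of all CpGs. The median outside CpG read 4.17% with DMSO, which leaves no room for a call. The outside of this window held both unmethylated and methylated CpGs: from 1500 to 1201 bp upstream, on the SGCE side, 12 CpGs read 3.01% in non-differentiated cells, and from 2100 to 2399 bp downstream 5 CpGs read 67.02%. In the last-named stretch the level was 41.1% with DMSO and 9.64% with the DNMT1 inhibitor. With the CpG island called inside in place of the run, the share left was 74.2% inside and 51.8% outside, a smaller contrast.

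The share left varied along the PEG10 region. It was 71.9% in the first 300 bp, 69.1% in the next 300 bp, 62.2% from 600 to 899 bp, 81.8% from 900 to 1199 bp and 86.8% (60.1% to 125%) from 1200 to 1499 bp, with overlapping intervals. The CpG with the highest share (chr7:94656951, 581 bp downstream) read 31.6%, 33.3%, 31.8% and 39.4% in the 4 libraries. The lowest was chr7:94657247, at 62.5%, 44.4%, 59.5% and 3.57%, called lower (Fisher's exact test, adjusted p = 0.000728). At the upstream edge of the PEG10 region the nearest 5 listed CpGs inside read 47.4%, 32.8%, 55.8% and 52.2%, and the 5 outside 11.8%, 17.3%, 5.80% and 6.0%. In these 5 inside CpGs, which begin 46 bp downstream of the start, the DNMT1 inhibitor library was thus above the DMSO library. The first of them had 10 reads with DMSO and 12 with the DNMT1 inhibitor. The nearest outside CpG listed in all 4 libraries lay 359 bp from the edge. At the downstream edge the 5 inside read 59.8%, 43.4%, 27.1% and 37.6%, and the 5 outside 67.02%, 41.1%, 64.0% and 9.64%. The rule put the upstream edge 442 bp further downstream with DMSO and 399 bp with the EED inhibitor, and the downstream edge 172 bp and 1194 bp further. The first listed CpG of the region, nearest the start (chr7:94656416), read 45.5%, 40.0%, 42.9% and 50.0%, and the last (chr7:94657695) read 50.0%, 38.9%, 41.7% and 23.1%. The SGCE window read 34.1%, 28.2%, 32.6% and 17.1% in all, close to the 34.4%, 28.3%, 32.8% and 17.4% of PEG10 that it overlaps.

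**Figure D2:**
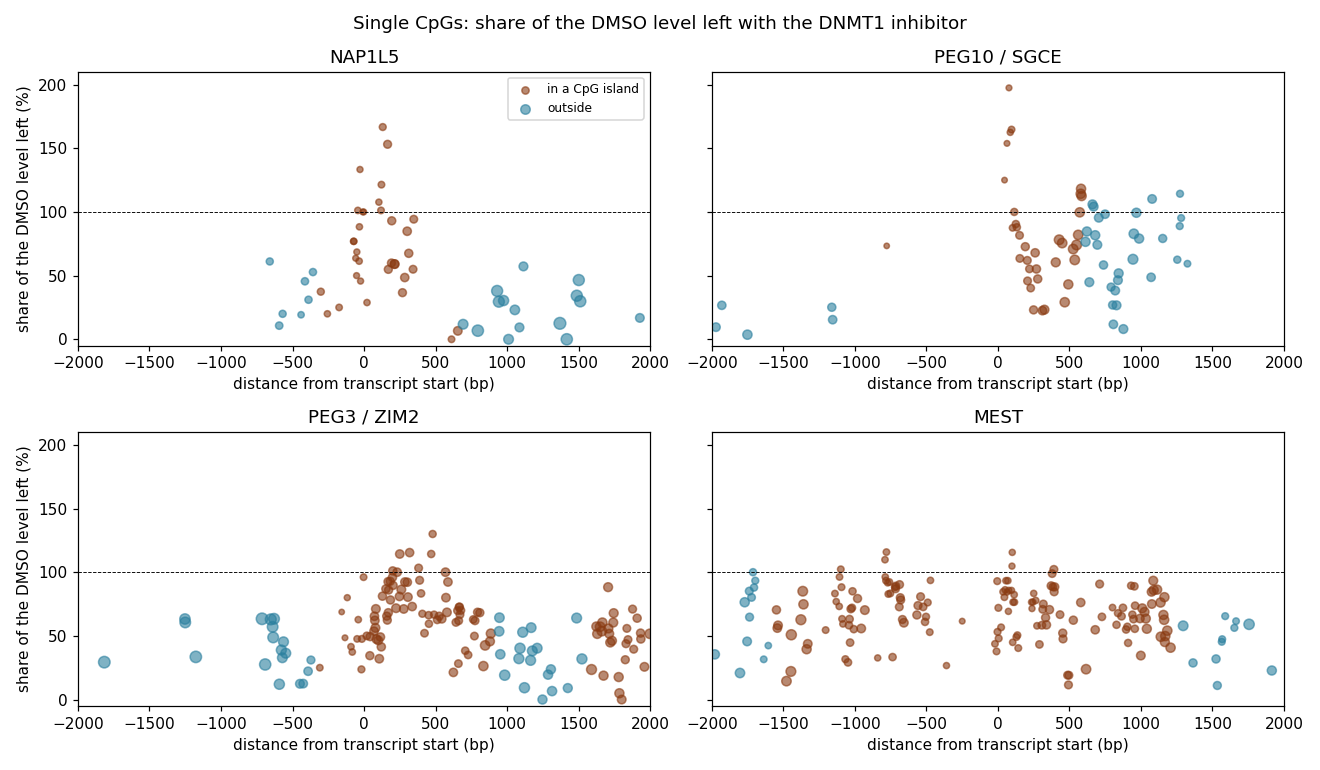
Share of the DMSO level left with the DNMT1 inhibitor (percent) at single CpGs within 2000 bp of the start of NAP1L5, PEG10, PEG3 and MEST, against distance from the start (bp), for CpGs at 25% or more in DMSO. Point area is proportional to the reads of both libraries and the dashed line is 100%. The median of island CpGs was 65.6% in NAP1L5, 73.7% in PEG10, 62.2% in PEG3 and 70.5% in MEST, and that of CpGs outside was 26.3%, 62.5%, 34.5% and 56.3%.

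PEG3, a zinc finger gene expressed from the paternal copy, and ZIM2 share their first exons and their start. The control region lay in intron 1 of both, 224 to 1734 bp downstream (chr19:56838992-56840502, 82 CpGs). It read 60.5% in non-differentiated cells, 60.0% with DMSO, 60.7% with the EED inhibitor and 34.8% with the DNMT1 inhibitor. Outside, the window read 61.0%, 57.2%, 56.6% and 28.0%, so intermediate levels were not confined to the control region. With a band of 15% to 85% the run covered the whole window.

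The share left in PEG3 was 58.0% (54.3% to 62.0%) inside and 49.0% (46.2% to 51.9%) outside, an order that turned with at least 20 reads (-0.542 points). It was highest near the start: 71.5% from 0 to 299 bp and 82.5% (73.6% to 92.5%) from 300 to 599 bp. It was 39.3% from 900 to 1199 bp and 26.1% (19.0% to 35.8%) from 1200 to 1499 bp, the gap between the islands, and 59.3% from 1800 to 2099 bp in the downstream island. Among single CpGs of the control region the share was lowest at chr19:56839478, where DMSO read 61.3%. There 0 of 27 reads were methylated with the DNMT1 inhibitor, with a Wilson upper bound of 12.5% for the level. The highest share, 115% (76.6% to 174%), was at chr19:56840407, where DMSO read 61.9% and the DNMT1 inhibitor 71.4%.

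The PEG3 edges were shallow, with intermediate levels on both sides. At the downstream edge the 5 CpGs inside and outside read 68.0% and 72.4% in non-differentiated cells. The rule put that edge 2154 bp further downstream with DMSO and 539 bp further with the EED inhibitor. At the upstream edge the steps were 41 bp and 230 bp. The upstream edge CpG, also the one nearest the start (chr19:56840502), read 76.2%, 62.5%, 66.7% and 44.8%, and the downstream edge CpG (chr19:56838992) read 70.4%, 66.7%, 58.1% and 30.8%.

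PLAGL1 encodes a zinc finger cell-cycle regulator whose control region is altered in transient neonatal diabetes. The rule placed a run in intron 1 at 417 to 1551 bp downstream (chr6:144006708-144007842, 33 CpGs), which only partly overlaps the island around the start. It read 59.4% both in non-differentiated cells and in DMSO, 58.1% with the EED inhibitor and 24.9% with the DNMT1 inhibitor. Outside it the window read 80.8%, 74.4%, 75.6% and 35.6%. The share left was 41.8% (37.7% to 46.4%) inside and 47.9% (44.9% to 51.0%) outside. This order turned with at least 20 reads (3.08 points higher inside) and with a band of 15% to 85% (8.09 points). The upstream edge CpG, also the one nearest the start (chr6:144007842), read 78.3%, 45.5%, 55.2% and 35.3%. The downstream edge CpG (chr6:144006708) read 74.5%, 81.4%, 58.5% and 13.5%.

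Within the PLAGL1 window the share was highest in the 300 bp after the start, in the island but outside the run, at 74.1% (63.1% to 86.9%), where the levels were 77.95%, 71.7%, 70.5% and 53.1%. It was 22.4% (16.8% to 30.0%) from 1200 to 1499 bp. The run's edges moved by 214 bp and 555 bp with DMSO and by 119 bp and 807 bp with the EED inhibitor. The CpGs at 1181 and 1213 bp, 32 bp apart, had the highest and lowest shares of the run: 53.5% with DMSO and 42.2% with the inhibitor at the former, 51.4% and 4.55% at the latter.

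FAM50B is an intron-poor retrogene, and its run spanned 703 bp upstream to 326 bp downstream (chr6:3848670-3849699, 37 CpGs). The levels were 54.4%, 61.1%, 58.0% and 34.5%. Further into the island methylation was high: from 900 to 1199 bp 27 CpGs read 94.1%, 93.8%, 96.7% and 65.4%. The downstream edge was found at the same CpG, chr6:3849699, with DMSO and with the EED inhibitor. The upstream edge was 755 bp further downstream with DMSO, 52 bp past the start, and 571 bp further downstream with the EED inhibitor.

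The share left in FAM50B was 56.5% (51.5% to 61.9%) inside the run and 53.0% (51.0% to 55.1%) outside it, and the outside held most of the island. The order turned with unweighted means (-1.69 points). From 900 to 1199 bp it was 69.7% (65.8% to 73.8%). Downstream past the island the 300 bp steps, of 1 to 3 CpGs each, kept from 6.01% (1800 to 2099 bp) to 41.1% (2400 to 2699 bp). Both of these steps held a single CpG. The lowest single CpG of the run, chr6:3848861 upstream of the island, read 53.5% with DMSO and 2.94% with the inhibitor. The highest, chr6:3849584 in intron 1, read 60.5% and 55.6%. The CpG nearest the start (chr6:3849409) read 50.0%, 72.7%, 55.0% and 37.5%. The upstream edge CpG (chr6:3848670) read 79.5%, 71.2%, 68.75% and 15.2%, and the downstream edge CpG 71.9%, 78.9%, 81.1% and 51.2%.

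L3MBTL1 encodes a Polycomb-related chromatin reader, and its window differed from the others. Downstream of the annotated start part of the island was nearly unmethylated: from 300 to 599 bp 11 CpGs read 3.95%, 3.30%, 5.26% and 0%. Towards its ends the island was methylated, at 43.1%, 38.9%, 50.2% and 15.2% from 600 to 301 bp upstream and at 84.1%, 81.1%, 88.0% and 27.5% from 900 to 1199 bp downstream. The 300 bp before the start had no CpG listed in all 4 libraries. The run found by the rule lay 1761 bp or more upstream, outside the island (18 CpGs in the window, chr20:43504700-43505936, continuing to chr20:43504073). It read 59.7%, 57.3%, 58.4% and 8.49%, with 14.8% of the DMSO level left (10.9% to 20.1%) against 23.1% outside (20.7% to 25.8%). With a band of 15% to 85% another run was found, downstream of the start, and the order turned (24.5% inside, 20.95% outside). The upstream run, 1761 bp or more from the start, had its downstream edge at the same CpG in the non-differentiated, DMSO and EED inhibitor libraries. That CpG, the nearest to the start (chr20:43505936), read 100%, 85.7%, 86.96% and 17.6%, and the first in the window (chr20:43504700) read 78.3%, 94.7%, 88.5% and 0%. The highest share of the upstream run was at chr20:43504831, with 85.2% in DMSO and 36.0% with the DNMT1 inhibitor, and the lowest at chr20:43505380, with 46.4% and 0 of 24 reads.

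The other annotated starts of L3MBTL1 led to 5 further runs. The one with the highest share left lay between 6743 and 8103 bp downstream, over exon 5 (chr20:43514440-43515800). Its 25 CpGs read 47.2%, 52.9%, 57.8% and 23.4%, and 44.2% of the DMSO level was left (35.9% to 54.4%). This stretch had a median of 34 CpGs within 250 bp, against 8 in the upstream run, and fewer reads, a mean of 12.8 to 15.4 per CpG. The other 4 had 5 or 6 CpGs within 250 bp and 12.5% to 31.9% left. These 5 runs lie outside the 3 kb window and entered no count.

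MEST, a member of the alpha/beta hydrolase fold family, read 89.0% over its window in non-differentiated cells, 85.5% with DMSO, 87.0% with the EED inhibitor and 53.4% with the DNMT1 inhibitor. NNAT, a small membrane proteolipid gene within intron 1 of BLCAP, read 90.2%, 88.2%, 89.1% and 42.0%. Within the islands the levels were 90.9%, 89.2%, 90.4% and 59.9% for MEST and 88.9%, 87.2%, 89.2% and 50.4% for NNAT. In the libraries without the DNMT1 inhibitor, neither island therefore showed the intermediate level of a control region with 1 unmethylated copy. Which copies of the genes the cells carry was not analysed here.

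In MEST the share left in 300 bp steps over the island was highest at 79.4% (72.7% to 86.9%) from 900 to 601 bp upstream, with 72.0% just downstream of the start. It was 28.4% (17.8% to 45.2%) from 2100 to 1801 bp upstream, outside the island. The share did not drop at the upstream island border. From 1800 to 1501 bp upstream, where 3 of 13 CpGs lie in the island, it was 67.8% (61.3% to 74.9%). Downstream, from 1500 to 1799 bp and outside the island, it was 46.7% (38.6% to 56.6%). A pair of CpGs between 2400 and 2699 bp downstream read 0% in all 4 libraries. Of the MEST island CpGs, chr7:130493171 had the highest share, at 96.0%, 100%, 97.1% and 93.3%, and chr7:130490606 the lowest, at 90.9%, 83.9%, 75% and 12.1%. The CpG nearest the start (chr7:130492082) read 100%, 82.4%, 73.3% and 43.75%. The edges of the island read 100%, 90.9%, 90% and 64.0% upstream (chr7:130490536) and 92.0%, 89.3%, 94.9% and 36.4% downstream (chr7:130493292).

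In NNAT the share left was highest just downstream of the start, at 67.8% (63.0% to 73.0%), and 47.1% in the 300 bp upstream of it. At chr20:37520986, 264 bp upstream, the levels were 100%, 85%, 100% and 9.09%, and at chr20:37521354 in the coding part of exon 1 they were 94.1%, 85.7%, 95.5% and 83.3%. These CpGs had the lowest and the highest share of the island. The CpG nearest the start (chr20:37521246) read 53.3%, 75%, 72.7% and 35.7%. The edges of the island read 100%, 92.1%, 89.2% and 27.3% upstream (chr20:37519973) and 93.3%, 85.7%, 100% and 30.8% downstream (chr20:37521766).

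Inside the control regions the share left was higher than outside in 4 of 6 windows, where 31.5% of all windows with such a run showed that order. The L3MBTL1 region in this count is the run upstream of its island, so the name rests on the rule alone there. The intervals did not overlap in PEG10, PEG3 and NAP1L5, with the inside higher, and in L3MBTL1, with the inside lower. Over the whole L3MBTL1 run, of which the window holds a part, 19.8% was left (15.5% to 25.4%), which overlaps the outside interval. Pooled over the 6 windows, 54.8% was left inside and 43.96% outside. The rule's run did not follow the CpG islands in PEG10, PEG3, PLAGL1, FAM50B and L3MBTL1. In PEG10 it ran past the island end at 594 bp, and in PEG3 it crossed the gap between the islands. In PLAGL1 and L3MBTL1 the order turned when the islands were called inside.

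With CpG islands of the sequence in place of the runs (joined 500 bp stretches whose GC content reached 0.55 and whose ratio of observed to expected CpGs reached 0.65), all 8 windows kept a larger share inside than outside. Across all genes 69.7% of 3786 windows with islands at 25% or more in non-differentiated cells did so. The island shares were 67.2% in MEST, 74.2% in PEG10, 62.7% in PEG3, 57.8% in NNAT, 71.2% in NAP1L5, 56.9% in PLAGL1, 61.7% in FAM50B and 26.1% in L3MBTL1. Outside the islands they were 44.2%, 51.8%, 39.7%, 35.3%, 23.1%, 37.4%, 31.0% and 20.3% in the same order. The intervals did not overlap in 7 windows, L3MBTL1 being the exception.

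**Figure D3:**
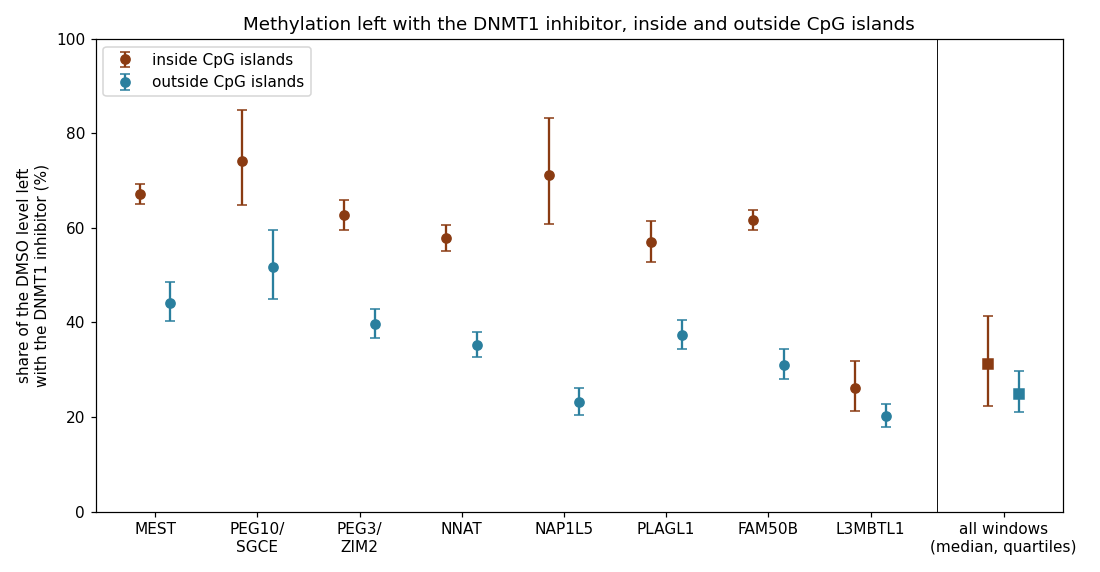
Share of the DMSO level left with the DNMT1 inhibitor (percent) inside and outside the CpG islands of each window; bars are 95% intervals for counting error. At the right are the medians (31.2% inside, 24.9% outside) and quartiles over 3786 protein-coding windows. Of the member islands 7 lie above the upper quartile of 41.4%, and L3MBTL1, at 26.1%, does not.

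Of the 8 member islands 7 were high in the range of all such windows, whose median island kept 31.2% and whose 95th percentile was 56.5%. The percentage of windows with an island share at least as high was 0.158% for PEG10, 0.264% for NAP1L5, 0.608% for MEST, 1.95% for PEG3, 2.17% for FAM50B, 4.07% for NNAT and 4.65% for PLAGL1. For L3MBTL1 it was 64.2%. These places are descriptions, and the members are part of the windows they are set against.

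CpG density moved with the share. Member islands had medians of 24 to 48 CpGs within 250 bp, against 6 to 19.5 outside. Over all CpGs of the genome that started between 25% and 75%, 18.3% of the DMSO level was left where up to 10 CpGs lay within 250 bp, 22.7% with 11 to 20 and 31.2% with 21 or more. For CpGs starting at 75% or more the shares were 27.5%, 34.1% and 41.9%. The island shares of the 7 windows, 56.9% to 74.2%, were above the densest of these classes. The L3MBTL1 island, at 34.5% in non-differentiated cells, kept 26.1%, below the 31.2% of the dense class that started between 25% and 75%. The part of density in the contrast of inside and outside was not tested.

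**Figure D4:**
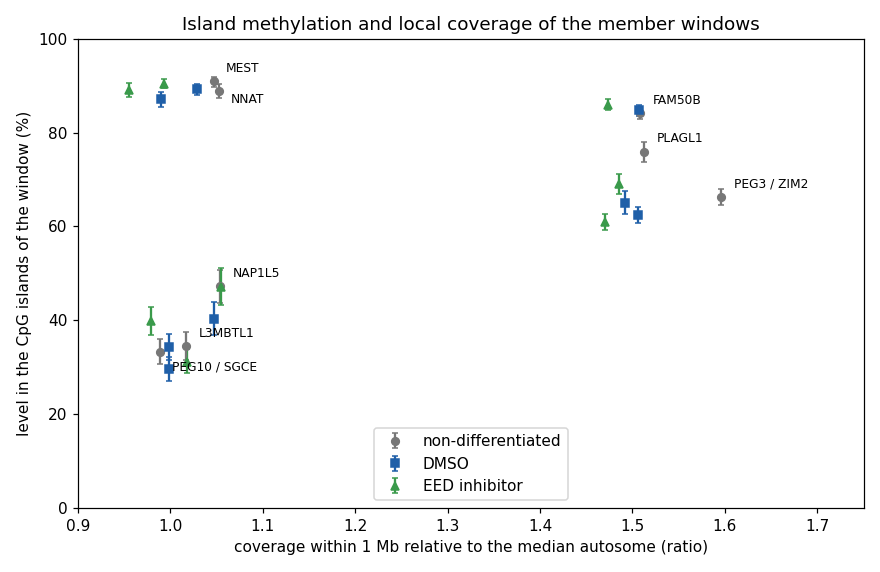
Level in the CpG islands of each window (percent, with 95% intervals) against the coverage within 1 Mb of the start relative to the median autosome (ratio), for the 3 libraries without the DNMT1 inhibitor. PEG3, PLAGL1 and FAM50B lie at ratios of 1.47 to 1.596, and the other 5 windows between 0.955 and 1.05.

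Coverage around the members fell into separate levels. Within 1 Mb of PEG3 it was 1.47 to 1.596 times the autosome median over the 4 libraries, around PLAGL1 1.47 to 1.51 times and around FAM50B 1.47 to 1.52 times. At the other 5 loci it was 0.955 to 1.07 times. The control regions of the first 3 read 54.4% to 60.5% in non-differentiated cells. Of those at a ratio near 1, the regions of NAP1L5 and PEG10 read 46.7% and 43.0%, and that of L3MBTL1 read 59.7%, within the range of the first 3. The L3MBTL1 run lies outside the island and mixes high and low CpGs. Its neighbouring CpGs chr20:43505091 and chr20:43505102 read 16.7% and 91.3% in non-differentiated cells. Over their islands, which the plot of level against coverage shows, PEG3, PLAGL1 and FAM50B read 66.3%, 75.97% and 84.3%. At ratios near 1 the islands of MEST and NNAT read higher than these, at 90.9% and 88.9%, and those of NAP1L5, PEG10 and L3MBTL1 lower, at 47.3%, 33.3% and 34.5%. Copy number was not measured here, so a level at these 3 loci cannot be read as a ratio of 1 methylated to 1 unmethylated copy. The part of coverage in these levels was not tested.

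TGCCGC occurred 11 times in the PEG3 window, 9 in NNAT, 8 in MEST, 7 each in NAP1L5 and PLAGL1, 4 in FAM50B, 2 in L3MBTL1 and 0 in PEG10. Of all protein-coding windows 72.0% held at least 1, and 0.157% held as many as PEG3. Most matches lay in the islands: 9 of 11 in PEG3, 6 of 7 in both NAP1L5 and PLAGL1, 7 of 8 in MEST, 4 of 4 in FAM50B and 2 of 2 in L3MBTL1, but 5 of 9 in NNAT. GCCATNTT occurred 11 times in the PEG3 window, 8 of them in the control region, where 67.4% of windows held at least 1 and 0.0105% as many as 11. The 0.157% includes the PEG3 window itself, counted again for ZIM2, and the 0.0105% consists of that window alone, counted for both genes. A match is a match of letters only.

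Pooled over windows, CpGs inside TGCCGC kept a larger share, but not in each window. Over the islands of the 8 windows 29 such CpGs had 72.7% of the DMSO level left (66.3% to 79.8%), and the other 686 had 62.0% (60.7% to 63.3%). The pool mixes windows of different levels. Of the 7 windows with such CpGs, 5 had this order, with intervals that did not overlap in NNAT (73.8% against 57.2%), in NAP1L5 (131% against 65.9%) and at the single such CpG of L3MBTL1 (67.7% against 25.2%). FAM50B had 61.2% against 61.7%, and the single such island CpG of PLAGL1 had 44.4% against 57.1%. In the control regions the pooled intervals overlapped (65.1%, 55.8% to 76.0%, against 54.2%, 52.0% to 56.6%), and the single such CpG of the PLAGL1 region was lower, at 16.5% (8.18% to 33.4%) against 43.2% (38.9% to 47.95%). The pooled order was also seen genome-wide among dense CpGs, at 38.9% against 31.2% for those starting between 25% and 75% and 48.4% against 41.8% for those starting higher. In NAP1L5 the 4 TGCCGC CpGs read 45.7% in non-differentiated cells, 35.3% with DMSO, 47.2% with the EED inhibitor and 46.2% with the DNMT1 inhibitor, with overlapping intervals. Of the 2 in the printed NAP1L5 sequence, chr4:88697707 read 35.3% with DMSO and 42.9% with the DNMT1 inhibitor and chr4:88697689 read 22.7% and 60.0%. The other 2 were not higher: chr4:88697902 read 40.0% and 30.8%, and chr4:88697837 read 50.0% in both. Outside the region chr4:88698398 read 100% and 20%. Each of these values rests on 10 to 22 reads. Some CpGs outside the motif but near a match kept a like share. The 2 between the printed NAP1L5 matches, chr4:88697701 and chr4:88697698, had 269% and 167% left. All 13 CpGs of that sequence together had 114% left. In L3MBTL1 the nearest listed CpG upstream of the match, chr20:43507156, had 66.96% left, and the nearest downstream, chr20:43507179, had 35.8%. The part of position in the contrast of motif and other CpGs was not tested.

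In the DMSO library 7 of the 8 windows were below the non-differentiated library, by up to 6.08 points at PEG10, and FAM50B was 2.09 points above it. The adjusted p of Fisher's exact test was below 0.01 for PEG10 (3.49e-05), MEST (0.000166) and PLAGL1 (0.00227), all short of the 25 points of a call. With the EED inhibitor 6 windows were above DMSO and 2 below, from 1.11 points lower at FAM50B to 5.02 points higher at NAP1L5. PEG10, 4.51 points higher, had an adjusted p of 0.00222. With the reads of a window divided by its CpG number the adjusted p was 1 for each of these. These comparisons and that of the DNMT1 inhibitor share the DMSO library. Some 300 bp steps within the windows differed more, in either direction. From 300 to 599 bp PLAGL1 read 72.8% in non-differentiated cells, 54.7% with DMSO and 58.7% with the EED inhibitor. From 0 to 299 bp FAM50B read 50.8%, 64.0% and 62.3% in the same order. Differences of single steps were not tested.

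Among 26 other imprinted genes 23 had a tested window, and 22 of the 23 were called lower with the DNMT1 inhibitor (background 83.6%). Their median share left was 27.8%, against 24.2% over all tested windows. The highest were ZNF331, a zinc finger gene, at 51.4%, and NAA60, which encodes an acetyltransferase, at 45.8%. Their islands kept 69.8% and 66.5%. The lowest were CALCR, the calcitonin receptor gene, at 14.7% and HERC3, the host gene of NAP1L5, at 17.5%. The HERC3 start, far upstream of NAP1L5, has an island at 4.11% in non-differentiated cells.

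Among 14 genes that act in keeping imprints, such as TRIM28 and UHRF1, 12 had a tested window and 8 were called lower (background 83.6%), with a median share of 28.1%. DPPA3 (43.6%) and SETDB1 (35.6%) were highest, and PADI6 (17.0%) and UHRF1 (17.5%) lowest. Expression was not measured in these libraries. As a check of the cell label, the windows of 10 erythroid marker genes had a median level of 40.0% with DMSO, against 43.4% to 65.2% for the medians of 5 marker lists of other cell types and 51.3% over all windows. In non-differentiated cells the erythroid median was 42.7%, within the 39.9% to 68.2% of the other lists. Methylation at a promoter does not show which cell types the sample held.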

How the data were processed

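Bisulfite sequencing of whole genomes was analysed in HUDEP-2 cells, 1 library per group, so no replicate spread exists. The submitters' processing notes name Trim Galore 0.6.7, cutadapt 4.1, Bismark, Bowtie2 2.1.0, methylKit and hg38; removal of duplicates is not given in the sources used here. Each deposited table gives, per the file headers, the coverage of a CpG (a read count) and which percent of its reads had C or T. The authors merged both strands, and no listed CpG has a count under 10 reads. Methylated reads were recovered as coverage times percent, within 0.0005 of the coverage. The libraries listed 24689329 to 24971588 CpGs at a mean coverage of 27.2 to 29.7 reads, and 90.0% of 25854361 CpGs were listed in all 4. Genome-wide levels were 61.7%, 60.3%, 16.8% and 59.3% in cells that were not differentiated, given DMSO, the DNMT1 inhibitor and the EED inhibitor.

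Levels are pooled over reads, with Wilson 95% intervals. The share left is the ratio of the DNMT1 inhibitor level to the DMSO level, with a Katz log 95% interval. Reads that span several CpGs, and PCR copies, are not independent, so intervals and p-values are too narrow. Two-sided Fisher exact tests were adjusted over all CpGs on chromosomes 1 to 22 and X, or over all windows with at least 5 CpGs. The code was tested on simulated data. Bisulfite conversion was not measured here. All members are named. In each control region, or island where there is none, the CpGs at the edges, nearest the start, and with the highest and lowest share left (at least 20 reads and 25%) are named; for lists, the 2 highest and 2 lowest genes. The members and lists were chosen with earlier results of these data known. Alternatives were other coverage minima, bands, pooling, window sizes, unweighted means and CpG islands. Python used numpy 2.4.6, pandas 2.3.3, scipy 1.17.1, numba 0.67.0 and matplotlib 3.10.9.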

Additional observations from a re-analysis of the deposited data

How the results depend on the processing

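The order of inside and outside depended on what was called inside in PLAGL1, L3MBTL1 and PEG3. The count of windows with a higher share left inside was 4 of 6 with control regions, also with at least 20 reads, 3 of 6 with unweighted means or regions found in the EED inhibitor library, and 6 of 6 with a band of 15% to 85%, which are other windows: PEG3 had no outside value there, and MEST gained a run of 10 CpGs. It was 8 of 8 with CpG islands, and again 8 with islands and at least 20 reads or islands and unweighted means (both added after seeing the data). The pooled share inside was 54.8%, and 62.4%, 59.6% and 63.2% under these 3 island settings, 48.7% with at least 20 reads, 52.0% with control regions found in the EED inhibitor library, 57.2% unweighted and 57.8% without L3MBTL1 (added after seeing the data). The pooled share outside was 43.96%, and 34.5%, 33.4%, 35.2% with islands, 41.1% with at least 20 reads, 48.7% with a band of 15% to 85%, 47.4% unweighted and 47.3% without L3MBTL1. The difference of inside minus outside turned sign in FAM50B (-1.69 points unweighted), PEG3 (-0.542 with at least 20 reads, -2.53 with regions found in the EED inhibitor library), L3MBTL1 (5.80, 11.5 and 16.4 with islands, 3.58 with the wider band) and PLAGL1 (19.6, 8.72 and 21.3 with islands, 3.08 with at least 20 reads, 8.09 with the wider band). The causes were not tested.

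Windows called lower with the DNMT1 inhibitor numbered 15959 over all genes, 8944 with reads divided by CpGs and 7959 with 1 kb on either side, and 4 instead of 7 members with divided reads. With 1 kb 6 members were called, against 42.8% of 18577 windows. Also with 1 kb 1 window instead of 0 was called for DMSO against non-differentiated cells (lower) and for the EED inhibitor (higher). With at least 20 reads 265 of 514 member CpGs were called lower, against 68.8% of all CpGs. Small differences turned sign. Against non-differentiated cells these were L3MBTL1 (0.909 with divided reads, 0.0419 with 1 kb), MEST (0.381 with 1 kb) and NAP1L5 (0.738 with at least 20 reads). For the EED inhibitor they were FAM50B (0.980 unweighted) and, with at least 20 reads, L3MBTL1 (-0.588), PEG3 (0.181) and PLAGL1 (-0.236). No paired analysis was possible because each group has 1 library. CpGs under 10 reads in any library were left out, which removed 41.8% of the CpGs of the L3MBTL1 window and 1.86% of those of PEG3.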
